A study of Homo sapiens with 3 samples.

Results

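ISG15 and 5 genes that attach it to proteins or take it off again were counted after knockdown of PRMT6 in HEC1B, an established line of human endometrial cancer cells. The 6 genes are ISG15, UBA7, UBE2L6, HERC5, HERC6 and USP18, out of 26485 in the count table, and they were picked by gene symbol. They were selected on the counts given below, in particular their high counts with siPRMT6-2. The members' own levels and differences are therefore a description, and no test is drawn from them.

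Total RNA was sequenced in 3 libraries of cells at 48 h. The library siPRMT6-2 (PRMT6 knockdown, called si3 in the sample description) and the library siPRMT6-1 (PRMT6 knockdown, called si2 there) were made with different siRNAs against PRMT6, an enzyme that methylates arginines in histones and elsewhere. The library siNC, with the genotype label WT, is the control. Each siRNA and the control has 1 library, so no siRNA is replicated, and the labels do not say whether the cultures were separate.

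ISG15 is a small protein built of a pair of ubiquitin-like folds, and type I and III interferons induce it strongly. It is joined to other proteins by a cascade parallel to that of ubiquitin: UBA7 activates it (E1), UBE2L6 carries it (E2), and in human cells HERC5 is the main ligase that passes it to newly made proteins. HERC6 is the closest relative of HERC5 and is the main ISG15 ligase in mice. USP18 removes ISG15 from its targets and, apart from that, binds the interferon receptor subunit IFNAR2 and dampens signalling. The genes of the cascade are themselves interferon-stimulated.

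The libraries held 362080, 381628 and 410916 counts in siPRMT6-2, siPRMT6-1 and siNC, and 5512, 5679 and 5754 genes reached 10 counts. PRMT6 (hg38 chromosome 1, 107056645 to 107059296, plus strand) had 7, 4 and 25 counts in the same order. Its depth-scaled level was 0.327 times siNC with siPRMT6-2 (95% interval 0.119 to 0.778) and 0.167 times with siPRMT6-1 (0.0421 to 0.482). In 150 of 185 pairs with at least 100 counts, a gene with an antisense name outcounted its opposite-strand partner in siNC, and it is uncertain which strand the counts stand for. No exon of a member overlaps one of an opposite-strand gene, but a strand setting that was reversed throughout would touch them too. The epithelial keratin genes KRT8 and KRT18 had 770 and 95 counts in siPRMT6-2, 681 and 85 in siPRMT6-1 and 1329 and 129 in siNC, and they overlap other genes' exons on the opposite strand. CDH1 and KRT19, which mark epithelial cells, and PGR and SOX17, which mark endometrium, had 0 counts in all 3 libraries. PAX8, an endometrial transcription factor gene that overlaps PAX8-AS1 on the opposite strand, had 227 counts in siPRMT6-2, 117 in siPRMT6-1 and 158 in siNC, nearly all of the 229, 118 and 158 counts of the endometrial markers.

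Promoters of members that were high together are shown for the motif that the interferon-activated factor ISGF3 and the IRF proteins are known to bind, the interferon-stimulated response element. The motif searched was its core GAAANNGAAA, where N is any base, on both strands. The RefSeq table of promoters (GRCh38.p14, from 250 bases before to 50 after a start) held 4 of the 6 members, ISG15, UBE2L6, HERC5 and HERC6, with 2 starts for UBE2L6. UBA7 and USP18 are named only. Each sequence below is the plus strand, which is the strand of both genes, and capitals mark the bases of the motif. ISG15 had 2 overlapping matches that begin at −113 and −107 from the start. HERC5 had 3 matches on the minus strand, so that they read TTTC on the strand shown, at −125, −119 and −74 from the start, the first pair overlapping. The windows are chr1:1013317-1013466 and chr4:88456939-88457088.
ISG15: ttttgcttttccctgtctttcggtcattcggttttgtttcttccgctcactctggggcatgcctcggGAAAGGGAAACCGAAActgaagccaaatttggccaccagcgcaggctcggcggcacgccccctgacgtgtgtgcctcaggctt
HERC5: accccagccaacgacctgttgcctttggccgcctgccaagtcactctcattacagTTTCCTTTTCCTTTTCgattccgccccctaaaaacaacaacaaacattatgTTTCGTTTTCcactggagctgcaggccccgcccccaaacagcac
The motif occurred in 3.57% of 35116 promoters in the table. No match was found in the windows of HERC6 and UBE2L6, which says only that these letters are not there. The RefSeq start of HERC6 lies 113 bases downstream of the start in the deposited gene model, and those of UBE2L6 lie 395 and 658 bases downstream. For ISG15 and HERC5 the distances were 30 and 2 bases.

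Of the 6 genes, 5 were high in the siPRMT6-2 library and 1, UBE2L6, had no counts in any library. Summed over the members there were 415 counts in siPRMT6-2, 10 in siPRMT6-1 and 2 in siNC. Scaled for depth, the sum with siPRMT6-2 was 243 times siNC (66.7 to 2010) and 46.6 times siPRMT6-1 (25.1 to 97.9). With siPRMT6-1 it was 5.20 times siNC (1.11 to 48.8), a ratio of 10 counts to 2, and HERC6 held 6 of the 10. Intervals are exact at 95%, Poisson for counts and binomial for ratios between 2 libraries, with counting error as the only error in them. In bulk RNA, fewer expressing cells and less RNA per cell cannot be told apart.

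**Figure D1:**
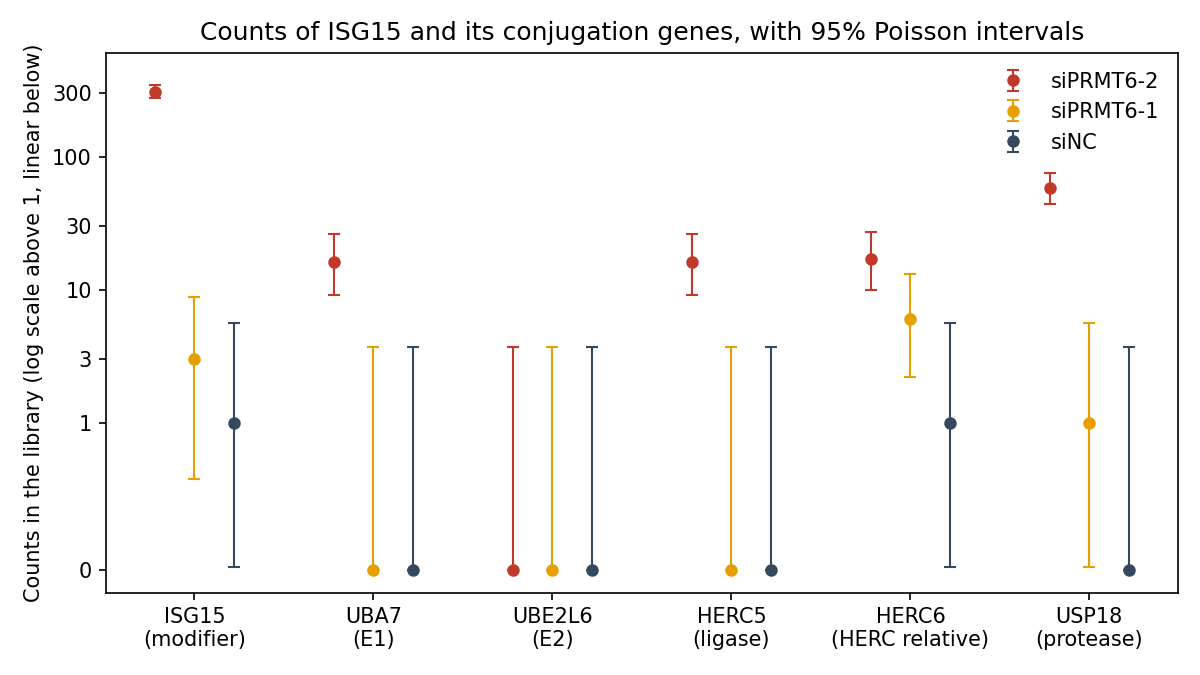
Counts of each member in the 3 libraries with 95% exact Poisson intervals, on an axis that is logarithmic above 1 and linear below. In siPRMT6-2 ISG15 stands at 308 counts and USP18 at 58, UBA7, HERC5 and HERC6 stand at 16 or 17, and UBE2L6 is at 0 in every library.

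ISG15, the modifier itself (chromosome 1, 1013467 to 1014539, plus strand, 2 exons), had 308 counts in siPRMT6-2 (274.6 to 344.4), 3 in siPRMT6-1 (0.619 to 8.77) and 1 in siNC (0.0253 to 5.57). The siPRMT6-2 library stood far above the other 2, whose intervals overlap. The ratio was 360 to siNC (64.1 to 14270) and 115 to siPRMT6-1 (39.1 to 562), and siPRMT6-1 over siNC gave 3.12 (0.251 to 164). ISG15 made up 74.2% of the members' counts in siPRMT6-2. It ranked 130 of 26485 genes by count in that library and 42 by depth-scaled counts per kilobase of exon (CPM per kb). Without ISG15 the other members still summed to 107 counts in siPRMT6-2, 7 in siPRMT6-1 and 1 in siNC. With siPRMT6-2 that sum was 125 times siNC (22.0 to 4986) and 17.2 times siPRMT6-1 (8.05 to 43.7). With siPRMT6-1 it was 7.285 times siNC, with an interval that takes in 1 (0.936 to 328).

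UBA7, the ISG15-activating enzyme (chromosome 3, 49805205 to 49813958, minus strand, 24 exons), had 16 counts in siPRMT6-2 (9.15 to 26.0), 0 in siPRMT6-1 and 0 in siNC. A floor of 3 counts per library is 8.09 CPM in siPRMT6-1 and 7.78 CPM in siNC. The level of UBA7 with siPRMT6-2 was 5.99 times the floor in siPRMT6-1 and 6.23 times the floor in siNC. With the counting error of the 16 counts taken in, the exact lower limits of its ratios to siPRMT6-1 and siNC were 4.33 and 4.51. The microRNA gene MIR5193 lies within UBA7 on the same strand and had 0 counts in all 3 libraries.

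UBE2L6, the conjugating enzyme that receives ISG15 from UBA7 (chromosome 11, 57551655 to 57568330, minus strand, 5 exons), had 0 counts in all 3 libraries. By counting error alone, a count of 0 allows up to 3 counts, which is 9.09 CPM in siPRMT6-2. The uncertain strand of the counts is not in that limit, and the cause of the 0 was not tested. UBE2L6 was not detected in these counts and is not shown to be absent. It shared no 50-base stretch with transcripts of other genes in GENCODE release 29. Among all genes 10241 (38.7%) had 0 counts in all 3 libraries.

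HERC5, the main human ISG15 ligase (chromosome 4, 88457117 to 88506168, plus strand, 23 exons), also had 16, 0 and 0 counts in siPRMT6-2, siPRMT6-1 and siNC. Its ratios to the floor and its exact lower limits were the same as for UBA7. HERC6, which lies 14.0 kb upstream of HERC5 on the same strand (88378739 to 88443097, 23 exons), had 17 counts in siPRMT6-2 (9.90 to 27.2), 6 in siPRMT6-1 (2.20 to 13.1) and 1 in siNC. Among the 5 detected members, HERC6 was the one whose knockdown libraries lay closest. Its level with siPRMT6-2 was 3.18 times that with siPRMT6-1 (1.20 to 9.86) and 19.9 times siNC (3.11 to 831), and with siPRMT6-1 it was 6.24 times siNC with an interval that takes in 1 (0.758 to 287). The pattern of at least 10 counts in siPRMT6-2 and 0 in both other libraries, shown by UBA7 and HERC5, was shared by 28 genes, 0.106% of the table. The same pattern for siPRMT6-1 alone or siNC alone was seen in 0 genes.

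USP18, the protease that removes ISG15 (chromosome 22, 18149991 to 18177395, plus strand, 11 exons), had 58 counts in siPRMT6-2 (44.0 to 75.0), 1 in siPRMT6-1 and 0 in siNC. Its level with siPRMT6-2 was 65.2 times that with siPRMT6-1 (11.2 to 2617) and at least 22.6-fold higher than the floor in siNC, with an exact lower limit of 17.8 once the error of the 58 counts is taken in. Of the 50-base stretches of its GENCODE transcripts, 23.4% also occur in other genes, nearly all of them in the near-identical gene USP41. USP41 has no entry of its own among the counted genes, so the counts of USP18 are uncertain. The shares were 0.626% for HERC6, mostly with HERC3, 1.24% for UBA7, all with MIR5193, and 0 for ISG15 and HERC5.

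Per exon length the order of the members in siPRMT6-2 was ISG15 at 1401 CPM per kb, USP18 at 86.4, UBA7 at 14.6, HERC5 at 13.8, HERC6 at 13.2 and UBE2L6 at 0. ISG15 stood 16.2 times above USP18 (12.2 to 21.9) and USP18 5.90 times above UBA7 (3.35 to 11.0). UBA7, HERC5 and HERC6 did not differ beyond counting error, with a ratio of 1.06 for UBA7 over HERC5 (0.497 to 2.27) and 1.04 for HERC5 over HERC6 (0.492 to 2.19). In siPRMT6-1 ISG15 had 12.2 CPM per kb, HERC6 4.16 and USP18 1.33, and in siNC ISG15 had 3.89 and HERC6 0.666. These rest on 1 to 6 counts each and their order cannot be read.

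The differences were set against all genes with log2 CPM differences that use a prior count of 2, so that genes at 0 keep a finite value that understates their change. The filter on low counts kept 6803 genes and 5 of the 6 members, each of which passed only through the siPRMT6-2 library. With siPRMT6-2 over siNC the differences were 6.85 for ISG15, 5.04 for USP18, 3.29 for UBA7 and HERC5 and 2.81 for HERC6, at ranks 2, 11, 37 and 58 of the 6803 genes. All 5 were at least 4-fold higher, as were 1.68% of the genes tested. The members were chosen from this contrast, so nothing is read from that count. The differences of siPRMT6-1 from siNC were 0.75 for ISG15, 0.57 for USP18, 0.00 for UBA7 and HERC5 and 1.42 for HERC6. Here 0 of the 5 reached 4-fold, against 0.191% of the genes tested. With a prior count of 0.5, HERC6 came to 2.14 and passed the 4-fold line. With siPRMT6-2 over siPRMT6-1, ISG15, USP18, UBA7 and HERC5 were at least 4-fold higher, against 1.81% of the genes tested, and HERC6, at 1.39, was not. The median log2 difference of all tested genes was 0.01 in each pair.

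**Figure D2:**
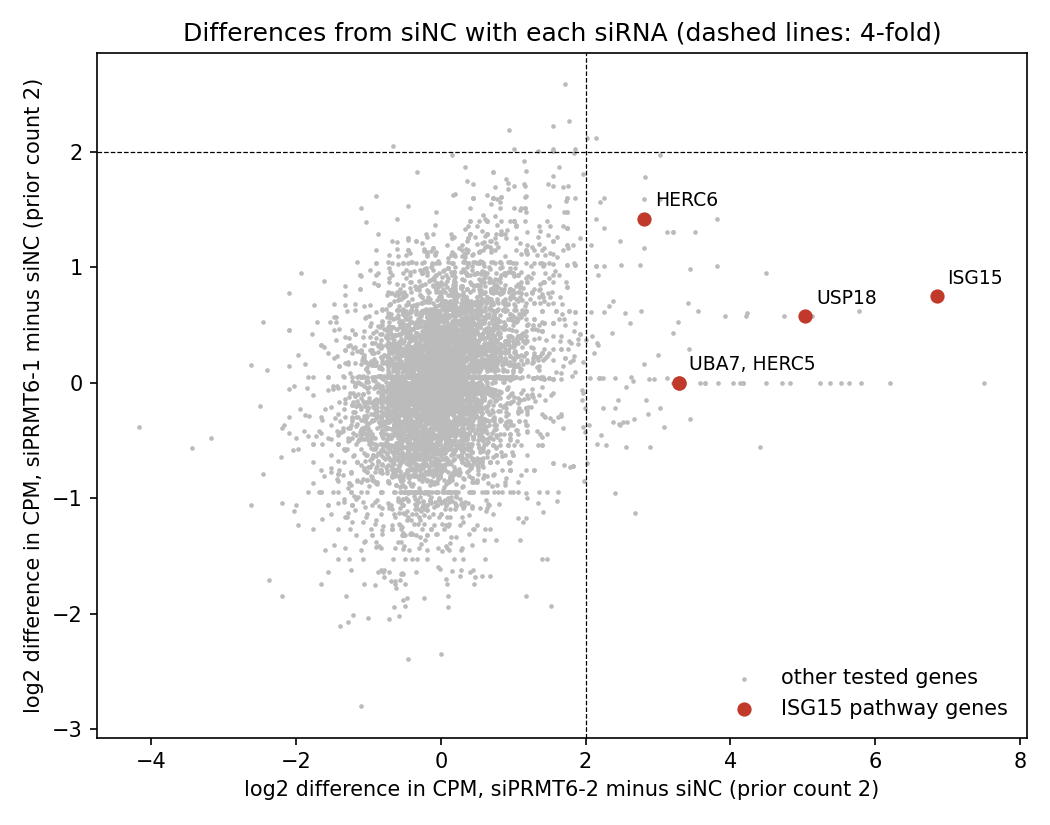
Log2 CPM difference from siNC with siPRMT6-2 (horizontal) and with siPRMT6-1 (vertical) for the 6803 tested genes, both with a prior count of 2 and both measured against the same siNC library. The 5 tested members (red) lie right of the vertical 4-fold line and below the horizontal one, from HERC6 at 2.81 and 1.42 to ISG15 at 6.85 and 0.75.

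Both PRMT6 knockdown libraries were also set against siNC in the quasi-likelihood test of edgeR, which takes its spread from the difference between the siRNAs. It called 0 of 6803 genes (0%) at an adjusted p under 0.05, with 186 genes at an unadjusted p under 0.05, and DESeq2 called 0, with 13. In edgeR's older quasi-likelihood fit 32 genes passed, all higher in knockdown. Taken as 1 group, the knockdown libraries held 425 counts of the members against 2 in siNC, a ratio of 117 (32.2 to 969). Without the siPRMT6-2 library that ratio was 5.20, and without siPRMT6-1 it was 243.

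The counterparts of the cascade in the ubiquitin pathway were detected in all 3 libraries, and the members are set beside them per exon length. UBB, a ubiquitin precursor gene, had 52, 63 and 62 counts in siPRMT6-2, siPRMT6-1 and siNC. Per exon length, ISG15 was 14.5 times UBB in siPRMT6-2 (10.8 to 19.8), 0.116 times in siPRMT6-1 (0.0234 to 0.356) and 0.0394 times in siNC (0.000981 to 0.228). UBA1, the main E1 of ubiquitin, had 56, 44 and 51 counts. UBA7 reached 0.323 times UBA1 per exon length in siPRMT6-2 (0.173 to 0.572), while its 0 counts allow at most 0.0990 times in siPRMT6-1 and 0.0849 times in siNC. UBE2L3, the closest ubiquitin E2 to UBE2L6, had 23, 31 and 36 counts and shares exon bases with RIMBP3B and RIMBP3C on the opposite strand. By counting error alone, UBE2L6 was at most 0.394 times UBE2L3 in siPRMT6-2, 0.286 in siPRMT6-1 and 0.244 in siNC. The uncertain strand of the counts is not in these limits or in those of UBA7.

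**Figure D3:**
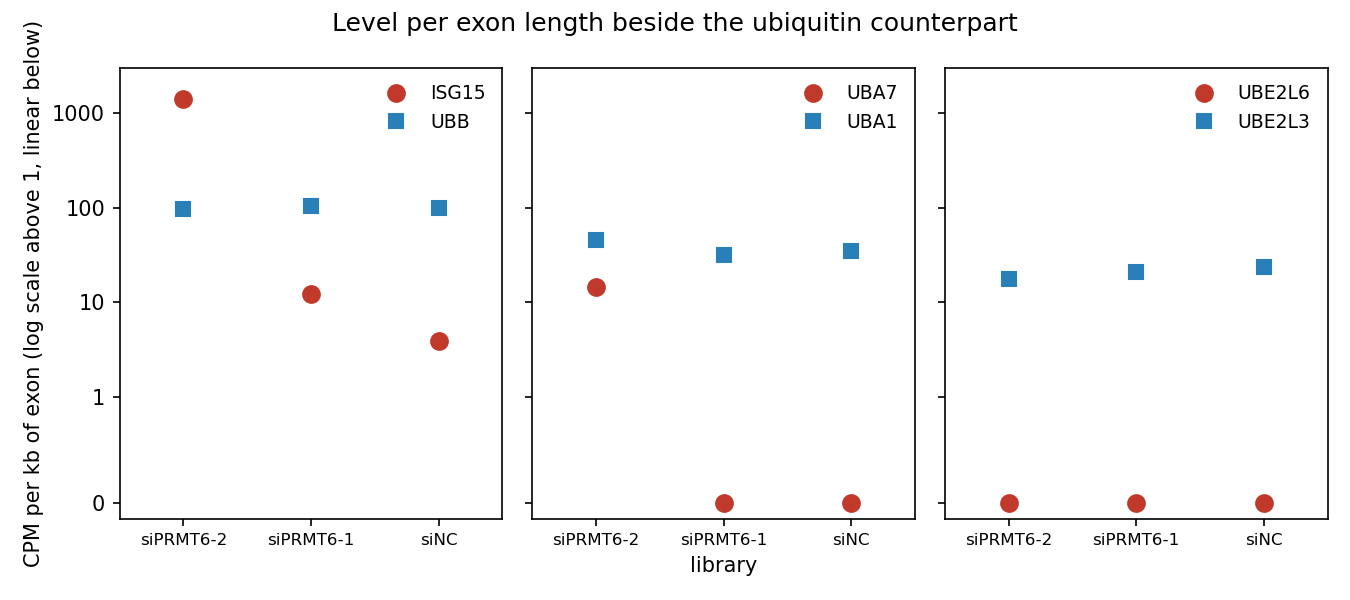
Level in CPM per kb of exon, on an axis that is logarithmic above 1 and linear below, of ISG15, UBA7 and UBE2L6 (circles) beside UBB, UBA1 and UBE2L3 (squares) in each library. ISG15 lies above UBB in siPRMT6-2, at 1401 against 96.9, and below it in siPRMT6-1 and siNC, while UBE2L6 is at 0 throughout.

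Other enzymes of the modifier pathways, taken from lists of their families, were counted in the same way. Outside the members there were 13 modifier, 8 E1, 23 E2 and 4 HERC genes, of which 8, 5, 13 and 1 were tested. Among these, 0 were at least 4-fold higher or lower in any pair. Of all 6803 tested genes, 1.68% were at least 4-fold higher with siPRMT6-2 over siNC. The share was 0.191% with siPRMT6-1 over siNC and 1.81% with siPRMT6-2 over siPRMT6-1. In the same order, 25, 9 and 37 genes were at least 4-fold lower. At such small shares nothing is read from the 0. The summed counts of the listed genes in siPRMT6-2, siPRMT6-1 and siNC were 454, 526 and 610 for modifiers and 245, 312 and 296 for E1 genes. They were 371, 420 and 433 for E2 genes and 32, 50 and 34 for HERC genes. The median log2 differences from siNC were 0.00 with siPRMT6-2 and −0.16 with siPRMT6-1 for modifiers, and −0.24 and 0.05 for E2 genes. UBD, which encodes the interferon-inducible modifier FAT10, had 0 counts in all 3 libraries. The modifier genes with the most counts were FAU with 143, 211 and 257, RPS27A with 89, 87 and 102, and UBB, and the first pair overlap MRPL49 and CLHC1 on the opposite strand. Among E1 genes ATG7, which overlaps VGLL4, had 135, 217 and 194 counts and SAE1, of the SUMO E1, 22, 13 and 20. Among E2 genes UBE2Z had 71, 45 and 70, UBE2D3, which overlaps noncoding genes on the opposite strand, 62, 69 and 74, and UBE2S 25, 58 and 51. HERC2, a large ubiquitin ligase, had 22, 33 and 19 counts, HERC4 6, 8 and 10, and HERC1 3, 8 and 4.

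Of enzymes outside the 6 members that have been reported to act on ISG15, TRIM25 had most counts in siPRMT6-2. TRIM25, a ligase for ubiquitin and ISG15 that is itself interferon-inducible, had 51, 22 and 27 counts in siPRMT6-2, siPRMT6-1 and siNC, and its level with siPRMT6-2 was 2.21 times siNC (1.36 to 3.66). ARIH1, also reported as an ISG15 ligase, had 12, 8 and 14 counts and the E2 gene UBE2E1 19, 25 and 11. None of these 3 genes was 4-fold higher or lower in any pair. Of the other proteases reported to cleave ISG15, USP5 had 12, 28 and 16 counts, USP21 12, 18 and 11, and USP13 8, 3 and 13, and 0 of 3 tested were 4-fold different. Few of all tested genes pass that line, as given above, so nothing is read from these lists in that respect.

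Genes whose proteins have been reported as ISG15 targets, 17 in the list and 11 tested, had a median log2 difference from siNC of 0.74 with siPRMT6-2 and 0.13 with siPRMT6-1, against 0.01 over all genes tested. IFIT1, an RNA-binding antiviral protein, had 18 counts in siPRMT6-2, 2 in siPRMT6-1 and 0 in siNC, and was at least 4-fold higher with siPRMT6-2. PLCG1, a phospholipase gene that overlaps PLCG1-AS1, had 35, 36 and 32 counts. MX1, an antiviral GTPase and classical interferon-stimulated gene, had 0 counts in all 3 libraries.

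Among the genes that carry the interferon signal to ISG15, those of the transcription factor ISGF3 named here had most counts in siPRMT6-2. STAT2, a subunit of ISGF3, had 27 counts in siPRMT6-2, 4 in siPRMT6-1 and 6 in siNC, and its level with siPRMT6-2 was 5.26 times siNC (2.13 to 15.6). IRF9, the DNA-binding subunit, had 11, 1 and 1 counts, too few to pass the filter, and is named after its values were seen. SOCS3, a feedback inhibitor, had 30, 20 and 15 counts, and the receptor kinase gene JAK1, which overlaps RAVER2, had 17, 17 and 19. IFNAR2, the receptor subunit that USP18 binds, had 8, 9 and 6 counts. Of 8 interferon genes 6 had 0 counts in every library, IFNL1 had 7, 0 and 1, and IFNL3 had 2, 0 and 0, and 0 of the 8 passed the filter.

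Genes next to the members did not share their levels, apart from HERC5 and HERC6, which neighbour each other, and SERPING1. Within 100 kb of a member 18 other genes had at least 10 counts over the 3 libraries. Of the 13 tested, 0 were at least 4-fold higher or lower with siPRMT6-2 than in siNC. Of all 6803 tested genes 1.68% were at least 4-fold higher and 25 genes at least 4-fold lower, so nothing is read from that 0. AGRN, 5.6 kb downstream of ISG15 on the same strand, had 255, 274 and 294 counts in siPRMT6-2, siPRMT6-1 and siNC, and its level with siPRMT6-2 was 1.01 times siNC (0.854 to 1.20). HES4, 13.3 kb upstream of ISG15 on the opposite strand, had 22, 16 and 19, and farther upstream SAMD11 had 236, 270 and 297 and NOC2L 69, 76 and 91. PERM1, 31.4 kb upstream, had 32, 15 and 20. KLHL17, PLEKHN1, C1orf159, AMIGO3, GMPPB and YPEL4 had no more than 24 counts in any library. Beside UBA7, IP6K1 had 26, 26 and 27 counts and RNF123 166, 181 and 207. Near USP18, PEX26 had 15, 33 and 30, and near HERC6, PPM1K had 5, 10 and 3. Beside the undetected UBE2L6, ZDHHC5 had 53, 54 and 55 counts and TIMM10 9, 6 and 11, and SERPING1, which encodes the complement inhibitor C1-INH and lies 29.2 kb upstream on the opposite strand, had 10, 1 and 0, too few to pass the filter.

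**Figure D4:**
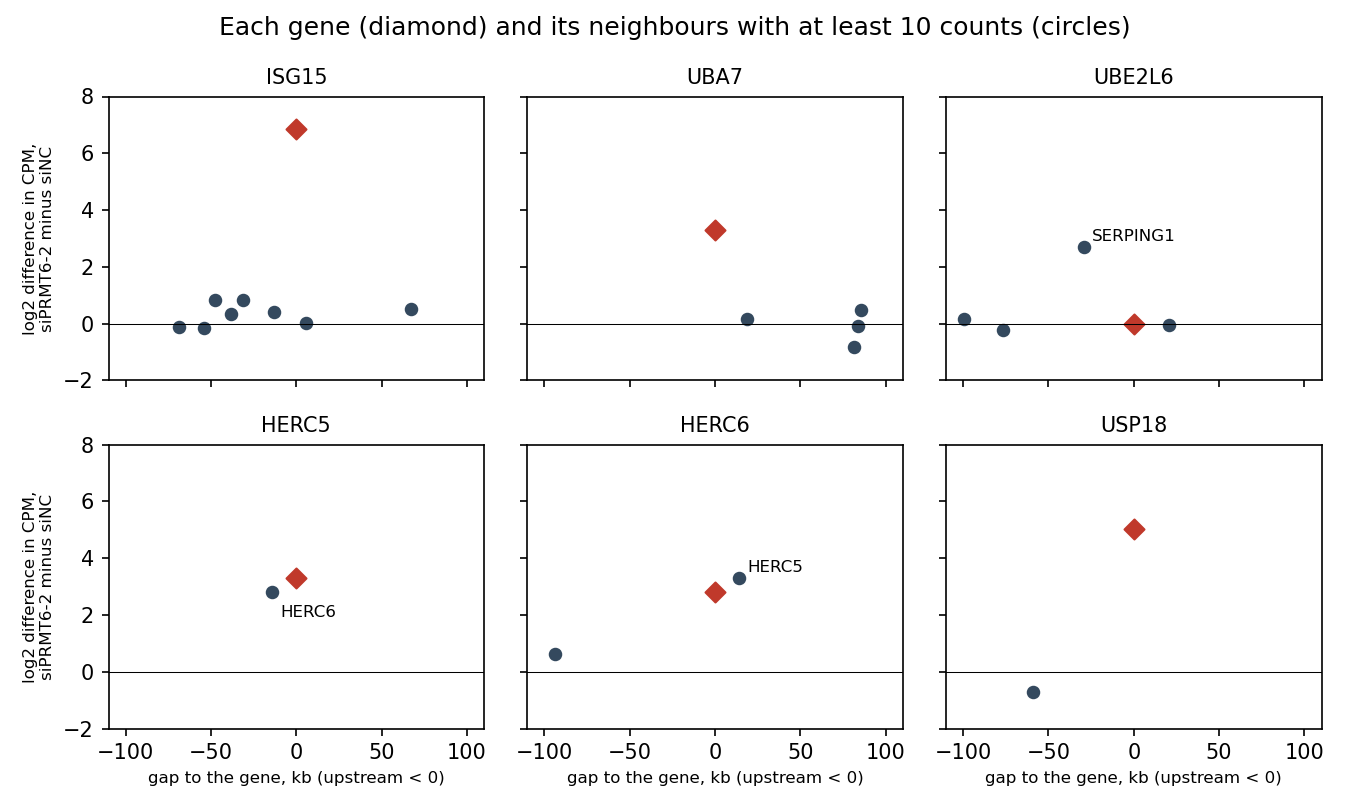
Log2 CPM difference of siPRMT6-2 from siNC (prior count 2) for each member (diamond) and for neighbouring genes within 100 kb with at least 10 counts (circles), against the gap in kb, with upstream genes at negative values. ISG15 at 6.85 stands above its neighbours, of which AGRN is the nearest at 0.02, and SERPING1 stands above UBE2L6, which is drawn at 0 for its 0 counts.

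The genes with the pattern most like the summed members were sought by the distance between their pairs of log2 differences from siNC, among 5591 genes with at least 30 counts over the 3 libraries. The members' sum lay at 6.88 with siPRMT6-2 and 1.60 with siPRMT6-1. The nearest were OAS3 with 286, 7 and 4 counts at a distance of 1.48, IFI6 with 330, 0 and 0 at 1.72, and OAS2 with 133, 0 and 0 at 1.74. ISG20, an RNA exonuclease gene, followed with 100, 0 and 0 counts at 1.93, and IFITM1, which encodes a membrane protein that restricts viral entry, with 89, 0 and 0 at 2.03. OAS2 and OAS3 make the oligoadenylates that activate RNase L. None of the 5 has exon bases in common with an opposite-strand gene.

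Leukocytes express the ISG15 genes readily, and leukocyte markers summed to 58 counts in siPRMT6-2, 20 in siPRMT6-1 and 17 in siNC. CD68 held 56, 19 and 17 of these, while 4 of the 7 listed markers, PTPRC, CD3E and CD14 among them, were at 0 in all 3 libraries. CD68 encodes a lysosomal protein of macrophages, and its part in the members' levels was not tested. Endothelial markers summed to 6, 18 and 19 counts and fibroblast markers to 372, 360 and 531, of which COL1A1 held 370, 354 and 515. PDGFRB, a fibroblast and pericyte receptor gene, had 2, 6 and 16 counts, and COL1A2, DCN and LUM had 0 in all 3 libraries.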

How the data were processed

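The authors deposited unnormalized whole-number counts of 26485 genes in 3 libraries. Per the labels' protocols, column-purified total RNA went into a stranded low-input total RNA kit. STAR 2.7.8a, featureCounts 2.0.10 and hg38 are named in the submitters' processing notes, while the file header gives featureCounts 2.0.1. Per the file headers, read pairs were counted with strand setting 1, reads that overlap several genes counted in each of them, and the names of the aligned files point to deduplication by UMI. Columns were matched to libraries through the sample descriptions, and 0 columns were left unmatched.

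The 6 genes and all gene lists were chosen with earlier results of these data known. Named genes are the members, PRMT6, the ubiquitin counterparts, the 3 genes of each list with the most counts, list genes past 4-fold with at least 10 counts, neighbours within 100 kb, and the 5 genes nearest in pattern. Exceptions are said in the text or are further list members given as values, such as those at 0, and a few genes that the rule names are not reported here.

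CPM used TMM library sizes from edgeR 4.0.16 in R 4.3.3. The test across genes was its two-sided quasi-likelihood F-test with filterByExpr (minimum count 10, minimum total 15) and Benjamini-Hochberg adjustment, checked on simulated data in which both knockdown libraries changed alike. It had 1 residual degree of freedom, the lone control is taken to vary as the knockdown libraries do, and its p-values reflect the spread among these libraries alone, which may be technical. DESeq2 1.42.0 was an alternative. Intervals came from SciPy 1.17.1. A floor of 3 counts stands for a count of 0, and intervals and floors cover counting error only. Exon overlaps came from the deposited gene models, and shared stretches and overlaps also from GENCODE release 29. Promoter sequences are from RefSeq on GRCh38.p14.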

Additional observations from a re-analysis of the deposited data

How the results depend on the processing

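No member's difference changed direction under any alternative run. The count of genes called in PRMT6 knockdown over siNC was 0 with DESeq2 size factors, without a filter and with DESeq2, and 32 with the older quasi-likelihood fit, and the cause was not tested. The members' sum without ISG15 was 17.2 times siPRMT6-1 with siPRMT6-2. Leaving out each knockdown library in turn, the sum over siNC ranged from 5.20 to 243, so the siPRMT6-2 library decides its size. Genes at least 4-fold higher with siPRMT6-1 than in siNC numbered 13, 29 without a filter, where more genes are tested, and 57 with a prior count of 0.5, which shrinks low counts less. Raw totals, DESeq2 size factors and library sizes from genes with no opposite-strand overlap, the last chosen after seeing the data, moved the summed ratios by less than their counting intervals. Log2 differences of siPRMT6-2 from siNC with a prior count of 0.5 were 7.88 for ISG15 and 5.17 for UBA7 and HERC5. No paired analysis was possible because the control and each siRNA have 1 library each. By counting error alone, a gene at 0 can hold up to 9.09 CPM at this depth. The uncertain strand of the counts is not in that limit.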

Other observations

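The core of the interferon-stimulated response element, GAAANNGAAA on either strand, was also looked up in the RefSeq promoters of all genes high with siPRMT6-2, members included. It occurred in 26 of the 73 genes with a promoter in the table that were at least 4-fold higher with siPRMT6-2 than in siNC (35.6%), ISG15 and HERC5 among them, and in 206 of 5000 tested genes with a promoter (4.12%). All 4 of the nearest genes by pattern that have a promoter in the table hold it. The 73 genes are part of the 5000 and, like the members, were picked on their siPRMT6-2 counts. These shares were not tested, and a match is not a site of binding.

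UBE2L6 and MX1, which interferon induces in many cell types, had 0 counts in all 3 libraries, while ISG15 had 308 counts in siPRMT6-2, 3 in siPRMT6-1 and 1 in siNC. The cause was not tested.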
